A study of Homo sapiens with 12 samples.

Results

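The genes described here encode the subunits of oxidative phosphorylation, the 5 protein complexes of the inner mitochondrial membrane that carry electrons from nutrients to oxygen and make ATP. They were chosen by name: protein-coding genes of complex I (NDUFA, NDUFB, NDUFC, NDUFS and NDUFV with a number), complex II (SDHA, SDHB, SDHC and SDHD), complex III (UQCR genes and CYC1), complex IV (COX4 to COX8 genes) and complex V, the ATP synthase (ATP5 genes), together with the 13 protein genes of mitochondrial DNA. Of 103 genes with such names, 94 had at least 10 counts in at least 3 of the 12 libraries and are the members. These are 81 nuclear genes (38 of complex I, 4 of complex II, 10 of complex III, 11 of complex IV and 18 of complex V) and all 13 mitochondrial genes, out of 57773 genes in the files and 14714 genes tested. All 94 members were tested.

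The cells were T47D, a luminal breast cancer line that expresses the estrogen receptor, and they carried a hairpin, expressed on induction, that targets PSMD2. PSMD2 belongs to the 19S cap of the proteasome. In the Lo19S state the hairpin had been induced with doxycycline at 0.2 µg/ml for 3 days and the drug then withdrawn for 24 h, while control cells carried the same hairpin uninduced. Each state then received bortezomib at 20 nM, an inhibitor of the proteasome core, or DMSO, its solvent, for 16 h, which gave 4 groups of 3 libraries: Lo19S with bortezomib, control with bortezomib, Lo19S with DMSO and control with DMSO. Per the labels only the Lo19S cells were induced, so the knockdown and the earlier exposure to doxycycline, a drug known to inhibit mitochondrial ribosomes, cannot be told apart. The labels give neither whether the hairpin line is 1 clone nor whether the libraries of a group are separate cultures, so the spread behind each p-value is that between libraries and may be technical.

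Complexes I and II feed electrons into the quinone pool, complex III passes them to cytochrome c, complex IV passes them to oxygen, and complex V uses the resulting proton gradient to make ATP. All of complex II and most subunits of the others are encoded in the nucleus, made in the cytosol and imported, whereas the 13 mitochondrial genes encode central membrane subunits of complexes I, III, IV and V. Those 13 genes are transcribed as long polycistronic RNAs from both strands of mitochondrial DNA and cut into single messages, and MT-ND6 alone among them lies on the light strand. Nuclear subunit genes are known targets of the transcription factors NRF1 and GABP, and of coactivators of the PGC-1 family.

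RefSeq promoter windows, 250 bases before to 50 bases after the gene start in build GRCh38.p14, were at hand for 65 of the 81 nuclear members. The NRF1-type motif, which is GCGC, any 2 bases and GCGC again, was in 17 of the 65 windows (26.2%), against 8.32% of all 35116 promoters in that table and 10.6% of its 22199 protein-coding promoters. The ETS-type motif CCGGAAG, the kind that GABP binds, was in 20 windows (30.8%), against 10.3% of all promoters and 12.8% of protein-coding promoters. Both strands were searched, and 3 members held both motifs. The windows of 5 genes on which the results turn are shown: NDUFB10, UQCR10, SDHA, ATP5MC1 and COX4I1. All but SDHA and COX4I1 were among the members that fell most with bortezomib. SDHA had the largest fall within complex II, and COX4I1 was not called with bortezomib. The 5 were chosen to show each motif and its absence, not as the largest falls in order. ATP5IF1, NDUFA2 and NDUFB1, which fell by more than SDHA in both states, have no match to either motif. Capitals mark matches to the NRF1-type motif in the first 3, of which SDHA has 4, and the reverse complement of the ETS-type motif in COX4I1. ATP5MC1 has no match, which says only that these letters are not in this window. The windows lie on the plus strand, at chr16:1959288-1959587 (NDUFB10), chr22:29767119-29767418 (UQCR10), chr5:218070-218369 (SDHA), chr17:48892537-48892836 (ATP5MC1) and chr16:85799445-85799744 (COX4I1).
NDUFB10: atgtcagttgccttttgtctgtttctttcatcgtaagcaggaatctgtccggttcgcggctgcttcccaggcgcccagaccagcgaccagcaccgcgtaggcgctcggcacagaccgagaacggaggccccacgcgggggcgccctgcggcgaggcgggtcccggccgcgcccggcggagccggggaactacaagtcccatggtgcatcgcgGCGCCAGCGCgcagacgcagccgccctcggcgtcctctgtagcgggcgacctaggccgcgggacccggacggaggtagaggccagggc
UQCR10: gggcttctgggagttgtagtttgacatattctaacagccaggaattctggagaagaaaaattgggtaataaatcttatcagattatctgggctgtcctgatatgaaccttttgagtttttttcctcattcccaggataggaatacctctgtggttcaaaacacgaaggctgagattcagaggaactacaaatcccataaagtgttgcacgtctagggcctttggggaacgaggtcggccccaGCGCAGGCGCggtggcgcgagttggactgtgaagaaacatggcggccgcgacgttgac
SDHA: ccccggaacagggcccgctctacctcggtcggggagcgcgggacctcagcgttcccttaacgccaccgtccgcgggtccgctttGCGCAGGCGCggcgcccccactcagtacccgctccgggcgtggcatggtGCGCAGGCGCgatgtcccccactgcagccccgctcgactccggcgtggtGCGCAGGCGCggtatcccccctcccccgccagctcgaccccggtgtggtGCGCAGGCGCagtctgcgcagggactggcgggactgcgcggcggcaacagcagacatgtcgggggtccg
COX4I1: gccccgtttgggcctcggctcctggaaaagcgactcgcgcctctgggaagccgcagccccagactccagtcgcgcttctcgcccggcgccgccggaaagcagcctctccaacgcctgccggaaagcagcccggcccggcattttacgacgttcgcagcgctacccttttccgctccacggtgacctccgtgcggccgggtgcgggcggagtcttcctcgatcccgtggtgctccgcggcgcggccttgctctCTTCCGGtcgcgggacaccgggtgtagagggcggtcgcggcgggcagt
ATP5MC1: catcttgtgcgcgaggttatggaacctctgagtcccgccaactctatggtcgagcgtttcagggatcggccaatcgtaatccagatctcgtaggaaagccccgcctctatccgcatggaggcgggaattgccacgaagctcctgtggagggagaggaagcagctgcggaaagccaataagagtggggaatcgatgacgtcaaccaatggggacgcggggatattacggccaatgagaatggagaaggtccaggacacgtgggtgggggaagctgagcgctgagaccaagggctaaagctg

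Library totals ran from 7376597 to 15003480 counts. Levels are CPM, the counts scaled to a common library size after trimmed-mean-of-M-values (TMM) adjustment, and TMM factors were 0.855 to 0.928 in bortezomib libraries and 1.115 to 1.132 in DMSO libraries. PSMD2 was at 183, 189 and 184 CPM in Lo19S cells with DMSO, against 408, 392 and 417 CPM in control cells with DMSO. Under bortezomib it was at 541, 546 and 540 CPM in Lo19S cells, against 1509, 1510 and 1528 CPM in control cells. One library, control DMSO replicate 3, differed from its group more than any other did: per degree of freedom, chi-square was 3.98 and 4.36 in its 2 replicate pairs, and 1.16 to 2.01 in the remaining replicate pairs. All 10 luminal breast markers were measured, and their summed level was 2792 to 2973 CPM in Lo19S cells with bortezomib, 2740 to 2822 in control cells with bortezomib, 7020 to 7098 in Lo19S cells with DMSO and 8303 to 8351 in control cells with DMSO. The part of this difference in the results below was not tested. Fibroblast, leukocyte and endothelial lists reached at most 69.7, 2.33 and 0.372 CPM, with 2 of 6, 1 of 5 and 0 of 5 genes passing the filter, and the leukocyte marker CD3E was at 0 in every library. In bulk libraries, less RNA of a gene per cell and fewer cells that hold it cannot be told apart.

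With bortezomib most nuclear subunit genes were lower and most mitochondrial ones higher on the TMM scale, in both states. In Lo19S cells 47 of 81 nuclear members were lower and 15 higher with bortezomib, with a median log2 fold change of -0.19. In control cells 45 were lower and 15 higher, with a median of -0.16. The mitochondrial members went the other way: 11 of 13 were higher and 1 lower in Lo19S cells (median 0.25), and 12 higher and 1 lower in control cells (median 0.43). Calls are at an adjusted p below 0.05 by the quasi-likelihood test of edgeR over all 14714 genes. Against these counts, 39.7% of all genes were lower and 37.8% higher with bortezomib in Lo19S cells, and 42.2% were lower and 39.2% higher in control cells, with medians of -0.022 and -0.043.

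Part of these directions depended on the scale. Under plain library totals the median of all genes shifted by a further -0.29 in Lo19S cells and -0.38 in control cells. On that scale the nuclear split was 66 lower and 3 higher in Lo19S cells and 68 lower and 1 higher in control cells. The mitochondrial split was then 4 lower and 2 higher in Lo19S cells (median -0.04) and 1 lower and 5 higher in control cells (median 0.05). With upper-quartile factors, which shifted the median by -0.14 in Lo19S cells and -0.13 in control cells, the mitochondrial split was 8 higher and 2 lower in Lo19S cells and 11 higher and 1 lower in control cells. A change of scale moves all genes of a comparison by nearly the same amount. The gap between nuclear and mitochondrial medians therefore stays on every scale by construction, which is no check of it.

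**Figure D1:**
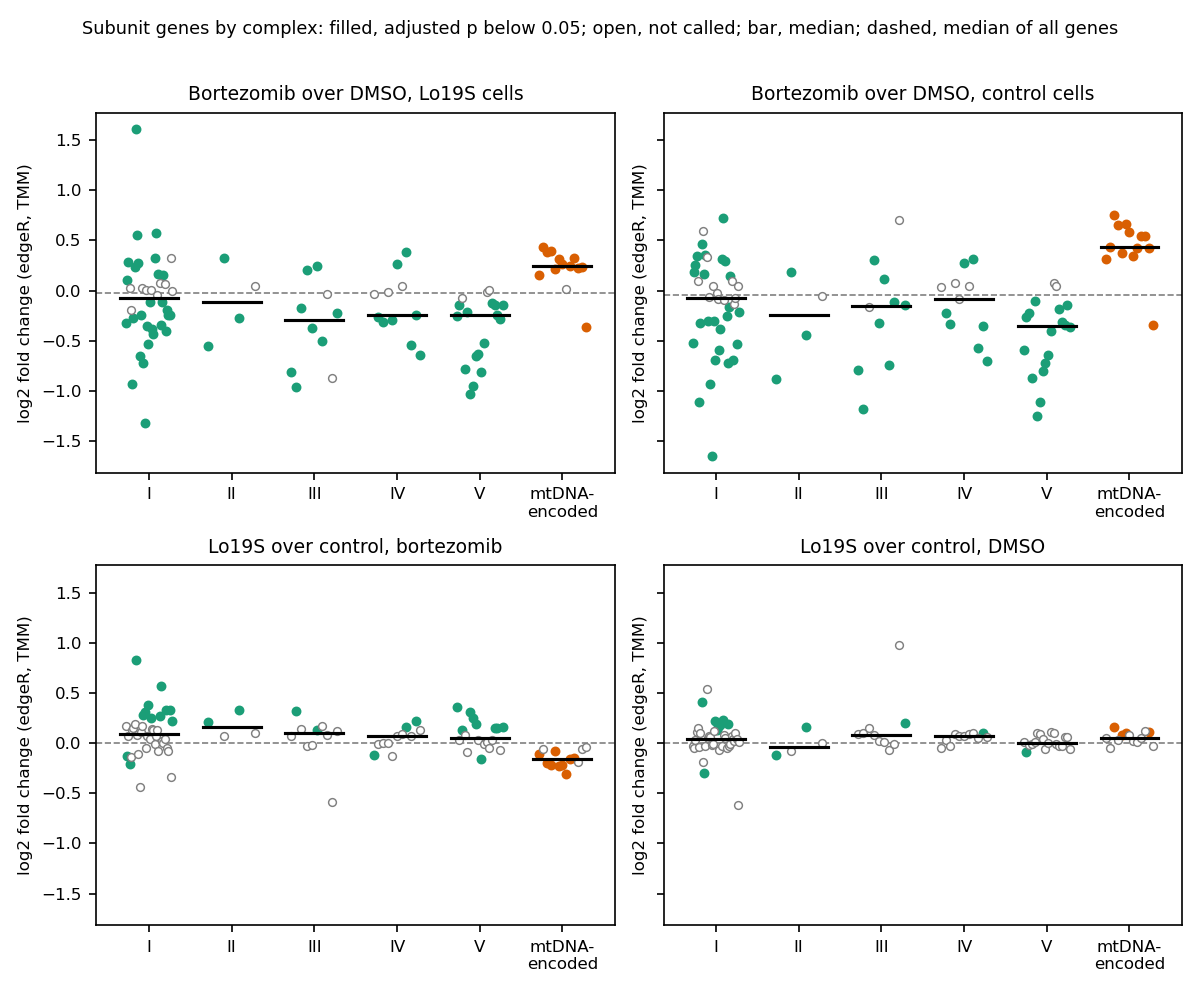
Log2 fold change (vertical axis) of every member by complex and, for mitochondrial genes, as 1 group, in 4 comparisons. Filled points passed an adjusted p below 0.05, open points did not, bars are medians and the dashed line is the median of all genes tested. With bortezomib complex V has no filled point above 0, and 11 mitochondrial genes in Lo19S cells and 12 in control cells lie above 0 as filled points.

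A ratio within a library does not depend on scaling between libraries. Counts of the 13 mitochondrial members summed to 5.63 ± 0.0241 times those of the 81 nuclear members in Lo19S cells with bortezomib, against 4.16 ± 0.0407 in Lo19S cells with DMSO (SD, n = 3 each). In control cells the ratio was 6.76 ± 0.249 with bortezomib, against 4.04 ± 0.0851 with DMSO. The bortezomib libraries lay above the DMSO libraries without overlap in both states, by 1.35-fold in Lo19S cells and 1.67-fold in control cells. Under bortezomib the Lo19S libraries (5.61 to 5.66) lay below the control libraries (6.48 to 6.96). As shares of all counts, nuclear members made up 0.939% in Lo19S cells with bortezomib against 1.29% with DMSO, and 0.816% in control cells with bortezomib against 1.24% with DMSO. Mitochondrial members made up 5.29% against 5.34% in Lo19S cells and 5.51% against 5.03% in control cells, so on this scale the nuclear share differed more. On the TMM scale the mitochondrial sum did: bortezomib over DMSO was 1.21 for mitochondrial and 0.891 for nuclear members in Lo19S cells, and 1.43 and 0.854 in control cells. Without the member with the most counts on each side, the ratios were 4.99 and 3.72 in Lo19S cells with bortezomib and DMSO, and 6.06 and 3.65 in control cells with bortezomib and DMSO.

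**Figure D2:**
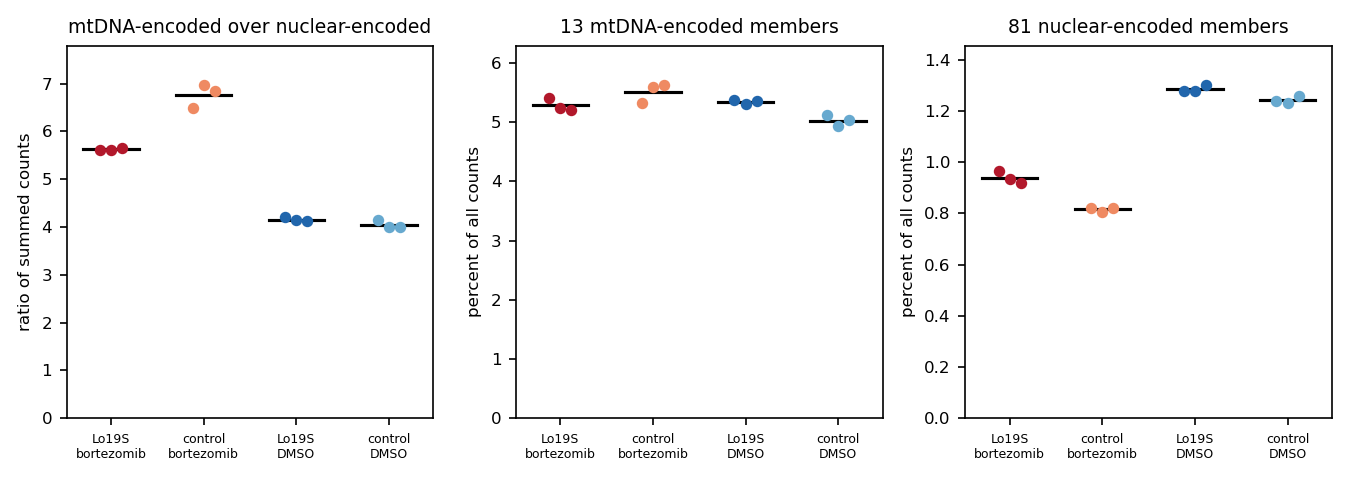
Summed counts of mitochondrial members over nuclear members (left), and each sum as a percent of all counts (middle and right), for every library by group, with bars at the group means. The ratio is highest in control cells with bortezomib (6.48 to 6.96), and the nuclear share is lowest there (0.804% to 0.822%).

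By complex, the summed share of the library fell least for complex I and most for complex V. Bortezomib over DMSO in Lo19S cells was 0.784 for complex I, 0.753 for complex II, 0.731 for complex III, 0.741 for complex IV and 0.68 for complex V. In control cells it was 0.712, 0.621, 0.674, 0.703 and 0.594 in the same order of complexes. These are quotients of mean shares of all counts, which also hold the shift of all genes given above. The calls by complex that follow are to be read against the shares of all genes. Of all genes 39.7% were lower and 37.8% higher in Lo19S cells, and 42.2% lower and 39.2% higher in control cells.

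Complex V, the ATP synthase, fell most evenly. No complex V gene was higher with bortezomib in either state, 15 of 18 were lower in Lo19S cells (median -0.25) and 16 of 18 in control cells (median -0.35). By median, complex V was the lowest of the complexes in control cells only. In Lo19S cells the median of complex III was -0.30 and that of complex IV -0.24. ATP5IF1, which encodes the inhibitor that stops the synthase from running in reverse, was at 72.5, 69.9 and 65.4 CPM in Lo19S cells with bortezomib, against 140.2, 145 and 136 CPM with DMSO. In control cells it was at 54.5, 53.2 and 58.8 CPM with bortezomib, against 134, 129 and 131 CPM with DMSO. It fell 2.04-fold in Lo19S cells (log2 -1.03, SE 0.050) and 2.37-fold in control cells (log2 -1.25, SE 0.053, adjusted p = 2.15e-26), with no overlap between treatments.

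The 3 genes of subunit c, which forms the rotor ring in the membrane and is the same mature protein from each gene, fell in both states, ATP5MC1 the most. ATP5MC1 was at 68.7, 57.5 and 57.8 CPM in Lo19S cells with bortezomib, against 112, 122 and 121 CPM with DMSO, and at 55.5, 48.3 and 50.7 CPM in control cells with bortezomib, against 113, 98.6 and 123 CPM with DMSO. Its log2 fold change was -0.95 (SE 0.071) in Lo19S cells and -1.11 (SE 0.074) in control cells. ATP5MC2 changed by -0.65 in Lo19S cells and -0.80 in control cells, and ATP5MC3 by -0.63 and -0.72. In the catalytic F1 head, 4 of 5 genes were lower in Lo19S cells and 5 of 5 in control cells. There ATP5F1D, the delta subunit of the central stalk, changed by -0.78 in Lo19S cells and -0.87 in control cells, and ATP5F1B, the catalytic beta subunit, by -0.14 and -0.26. Of the 12 genes of the membrane part and stalks, 10 were lower in each state. The genes not called in control cells were ATP5MG (log2 0.08, adjusted p = 0.125) and ATP5MJ (0.05, adjusted p = 0.34), which encode small membrane subunits, and in Lo19S cells the same pair and ATP5F1C, the gamma subunit (-0.07, adjusted p = 0.0773).

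**Figure D3:**
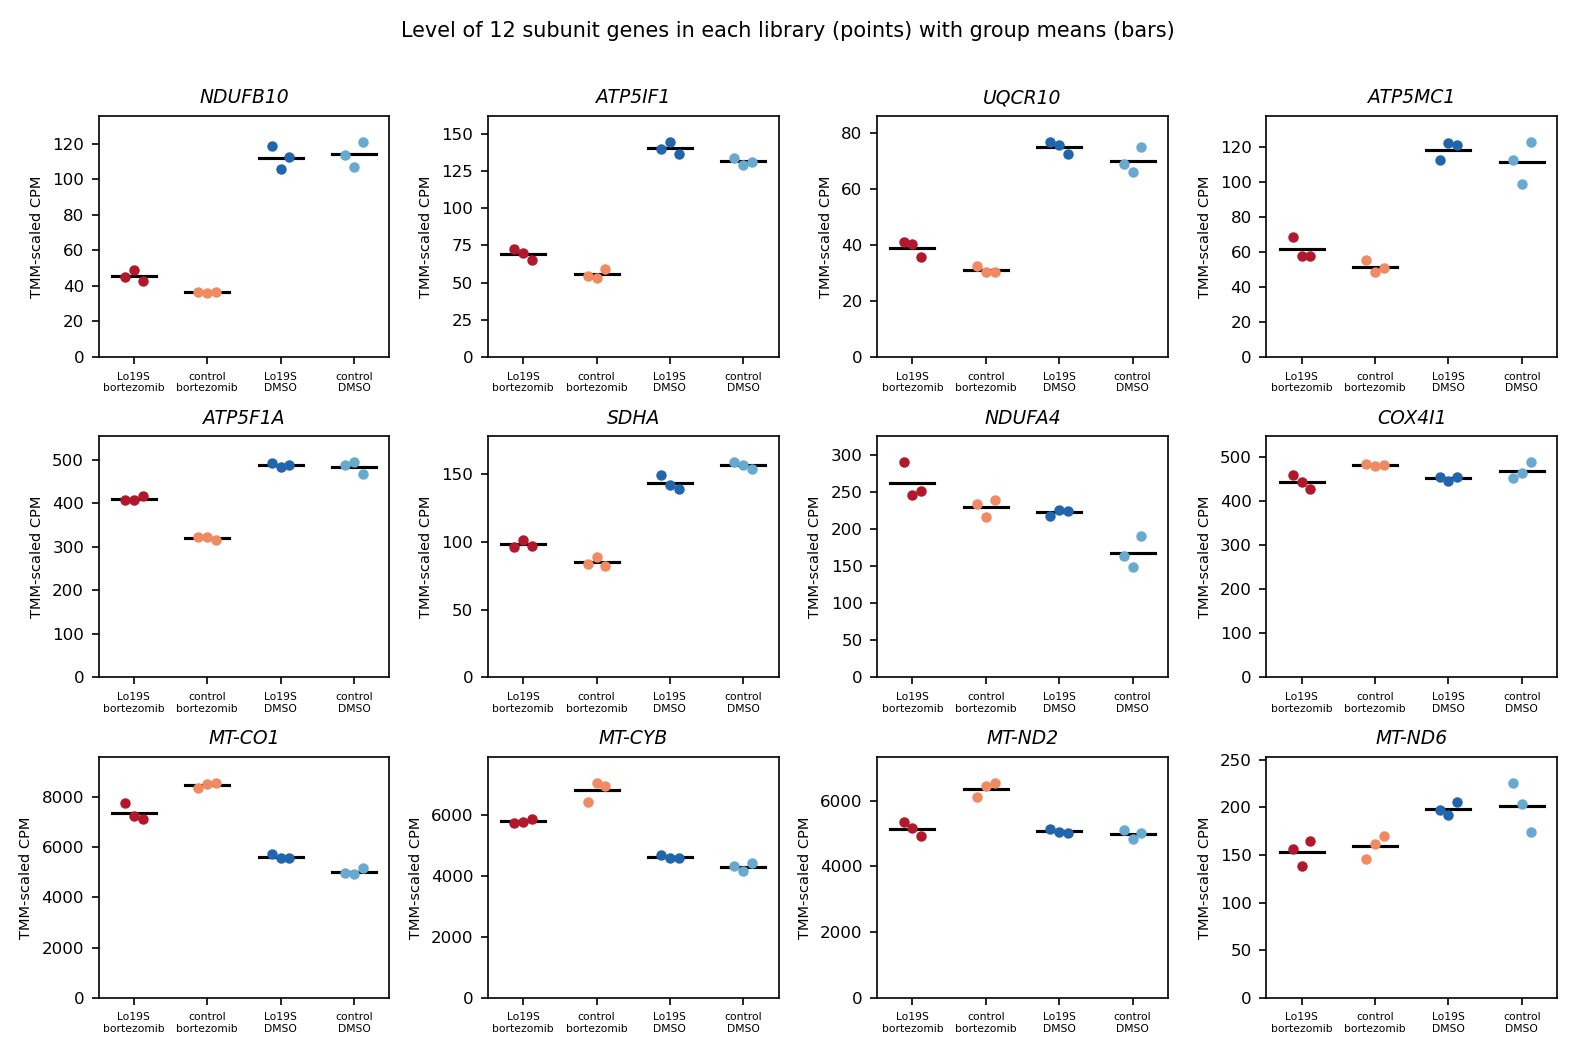
Level of 12 members in each library (points, TMM-scaled CPM, axis from 0) in the 4 groups, with bars at the group means. NDUFB10, ATP5IF1, UQCR10 and ATP5MC1 are lower in all 3 bortezomib libraries of each state than in any DMSO library, COX4I1 is near level, and MT-CO1 and MT-CYB are higher in the bortezomib libraries.

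Complex I, the NADH dehydrogenase, was mixed. With bortezomib 18 of 38 genes were lower and 10 higher in Lo19S cells, and 16 lower and 10 higher in control cells. The share lower was 47.4% in Lo19S cells and 42.1% in control cells, against 39.7% and 42.2% of all genes. The share higher was 26.3% in each state, against 37.8% and 39.2% of all genes. The largest fall of any nuclear member was that of NDUFB10, a subunit of the membrane arm, at 44.8, 49.2 and 42.9 CPM in Lo19S cells with bortezomib, against 119, 106 and 113 CPM with DMSO. In control cells NDUFB10 was at 36.5, 36.1 and 36.6 CPM with bortezomib, against 114, 107 and 121 CPM with DMSO. That is a 2.49-fold fall in Lo19S cells (log2 -1.32, SE 0.059) and a 3.13-fold fall in control cells (log2 -1.65, SE 0.062, adjusted p = 1.88e-28). Other accessory subunits followed: NDUFA2 changed by -0.93 in Lo19S cells and -1.11 in control cells, and NDUFB1 by -0.72 and -0.93.

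Other genes of complex I rose on the TMM scale. NDUFB9, an accessory subunit of the membrane arm, was at 346, 335 and 328 CPM in Lo19S cells with bortezomib, against 230.3, 229.6 and 220.5 CPM with DMSO. In control cells it was at 321, 325 and 311 CPM with bortezomib, against 194, 195 and 193 CPM with DMSO. NDUFB9 rose 1.48-fold in Lo19S cells (log2 0.57, SE 0.037) and 1.65-fold in control cells (log2 0.72, SE 0.037), and was the nuclear member with the largest called rise in control cells. NDUFA5, which lies in the arm that reduces quinone, rose by 0.55 in Lo19S cells and by 0.17 in control cells, where it was at -0.21 with library totals. On that scale all called rises of complex I in control cells turned negative except those of NDUFB9 and NDUFA4. In Lo19S cells those of NDUFA10, NDUFS4, NDUFA4, NDUFC2 and NDUFA6 turned negative and the other called rises did not. Within the complex no arm moved as a block. Of 8 genes of the NADH-oxidizing N module, 3 were lower and 1 higher in Lo19S cells, and 5 lower and 2 higher in control cells. Of 8 genes of the quinone-reducing Q module, 5 were lower and 2 higher in Lo19S cells, and 2 lower and 2 higher in control cells. Of 22 genes grouped with the proton-pumping membrane arm, 10 were lower and 7 higher in Lo19S cells, and 9 lower and 6 higher in control cells. Among the 7 nuclear genes of the catalytic core, 5 were lower in Lo19S cells and 4 in control cells, and none was higher in either.

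In complex II, succinate dehydrogenase, which also belongs to the citric acid cycle, the subunits went different ways. SDHA, the flavoprotein that oxidizes succinate, was at 96.6, 102 and 97.4 CPM in Lo19S cells with bortezomib, against 149.6, 142 and 139 CPM with DMSO. In control cells SDHA was at 83.7, 89.2 and 82.1 CPM with bortezomib, against 159, 157 and 154 CPM with DMSO, so the treatments did not overlap in either state. It changed by -0.55 (SE 0.046) in Lo19S cells and -0.88 (SE 0.047) in control cells. SDHC, a membrane anchor, fell by 0.27 in Lo19S cells and by 0.44 in control cells. SDHB, the iron-sulfur subunit, rose by 0.33 in Lo19S cells (adjusted p = 4.27e-08) and by 0.19 in control cells (adjusted p = 0.000531), but with library totals its change in control cells was -0.19 and in Lo19S cells 0.04. SDHD, the other anchor, was not called in Lo19S cells (0.05, adjusted p = 0.392) or in control cells (-0.05, adjusted p = 0.39).

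In complex III, 6 of 10 genes (60.0%) were lower and 2 (20.0%) higher in each state, to be read against the shares of all genes given above. UQCR10, a small subunit, was at 41.1, 40.5 and 35.7 CPM in Lo19S cells with bortezomib, against 77, 76 and 72.8 CPM with DMSO. In control cells UQCR10 was at 32.4, 30.5 and 30.3 CPM with bortezomib, against 69, 66.2 and 75.3 CPM with DMSO. Its log2 fold change was -0.96 (SE 0.064) in Lo19S cells and -1.18 (SE 0.068) in control cells. The catalytic subunits CYC1 (cytochrome c1) and UQCRFS1 (the Rieske iron-sulfur protein) were lower too, CYC1 by -0.81 in Lo19S cells and -0.79 in control cells, and UQCRFS1 by -0.50 and -0.74. UQCRB and UQCRC2 were higher, UQCRB by 0.21 in Lo19S cells and 0.31 in control cells, and UQCRC2 by 0.25 and 0.12. With library totals both were below 0 in both states, UQCRB at -0.08 in Lo19S cells and -0.07 in control cells, and UQCRC2 at -0.04 and -0.26.

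In complex IV, cytochrome c oxidase, 6 of 11 nuclear genes were lower and 2 higher in Lo19S cells, and 5 lower and 2 higher in control cells. The share lower was 54.5% in Lo19S cells and 45.5% in control cells, against 39.7% and 42.2% of all genes. The share higher was 18.2% in each state, against 37.8% and 39.2% of all genes. COX8A changed by -0.64 (SE 0.103) in Lo19S cells and -0.70 (SE 0.105) in control cells, and COX7B by -0.54 and -0.57. COX4I1, which encodes the largest nuclear subunit of the complex, was at 460.0, 444 and 428 CPM in Lo19S cells with bortezomib, against 455, 445 and 456 CPM with DMSO. In control cells COX4I1 was at 486, 479.7 and 482 CPM with bortezomib, against 454, 465 and 489 CPM with DMSO. It was not called in Lo19S cells (-0.03, adjusted p = 0.464) or in control cells (0.04, adjusted p = 0.274), although with library totals its change in control cells was -0.34. COX7A2L, whose protein bridges complexes III and IV in supercomplexes, rose by 0.39 in Lo19S cells and 0.32 in control cells, and COX6C by 0.27 and 0.28. With library totals COX7A2L was at -0.06 in control cells, and COX6C was at -0.02 in Lo19S cells and -0.10 in control cells. NDUFA4 is grouped here by its symbol with complex I, although its protein is now known as a subunit of complex IV. It rose by 0.24 in Lo19S cells (adjusted p = 0.0261) and 0.46 in control cells (adjusted p = 0.000596), and was at -0.05 in Lo19S cells with library totals. The Lo19S call of NDUFA4 was lost without Lo19S DMSO replicate 1 (0.22, adjusted p = 0.064) or replicate 3.

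On the TMM scale mitochondrial members rose with bortezomib except MT-ND6 in both states and MT-ND2 in Lo19S cells, whereas with library totals 2 rose in Lo19S cells and 5 in control cells. MT-CO1, the catalytic subunit of complex IV, was at 7747, 7237 and 7119 CPM in Lo19S cells with bortezomib, against 5718, 5557 and 5560.0 CPM with DMSO. In control cells MT-CO1 was at 8361, 8500.0 and 8555 CPM with bortezomib, against 4970.0, 4925 and 5179 CPM with DMSO. It rose 1.31-fold in Lo19S cells (log2 0.39, SE 0.031) and 1.69-fold in control cells (log2 0.75, SE 0.031, adjusted p = 7.64e-27). MT-CYB, the cytochrome b of complex III, rose by 0.32 in Lo19S cells and 0.66 in control cells, and MT-CO2 by 0.40 and 0.65. MT-ND6 was at 156, 139 and 165 CPM in Lo19S cells with bortezomib, against 197, 192 and 205 CPM with DMSO, and at 146, 162 and 170 CPM in control cells with bortezomib, against 226, 204 and 174 CPM with DMSO. It fell by 0.36 in Lo19S cells (SE 0.098, adjusted p = 0.00718) and by 0.34 in control cells (SE 0.098, adjusted p = 0.00876). The treatments did not overlap for MT-ND6, the only light-strand gene among the members, in either state. Its change was negative with TMM, DESeq2 and upper-quartile factors and with library totals. The other scales lower all genes or hardly move them, so they could not have turned this change positive.

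MT-ND2 was called in control cells (log2 0.35, SE 0.032) and was at 0.02 in Lo19S cells (adjusted p = 0.502), and the difference of the responses passed (-0.33, adjusted p = 1.44e-07). With library totals it was at -0.03 in control cells and -0.26 in Lo19S cells. On that scale MT-ATP6 was also below 0 in both states (-0.13 in Lo19S cells and -0.06 in control cells), and in Lo19S cells so were MT-ND1 (-0.01), MT-CO3 (-0.07), MT-ND3 (-0.04), MT-ND4L (-0.05) and MT-ND5 (-0.04). MT-ATP8 rose by 0.43 in each state (adjusted p = 0.04 in Lo19S cells and 0.0348 in control cells). Its call was lost in 5 of 12 fits that left out 1 library in Lo19S cells, with an adjusted p of up to 0.14 without Lo19S bortezomib replicate 1, and in 4 of 12 in control cells, up to 0.125 without control bortezomib replicate 3. MT-ND4L, which rose by 0.23 in Lo19S cells (adjusted p = 0.0335), lost its call in 4 of 12, up to an adjusted p of 0.0877 without Lo19S DMSO replicate 1.

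**Figure D4:**
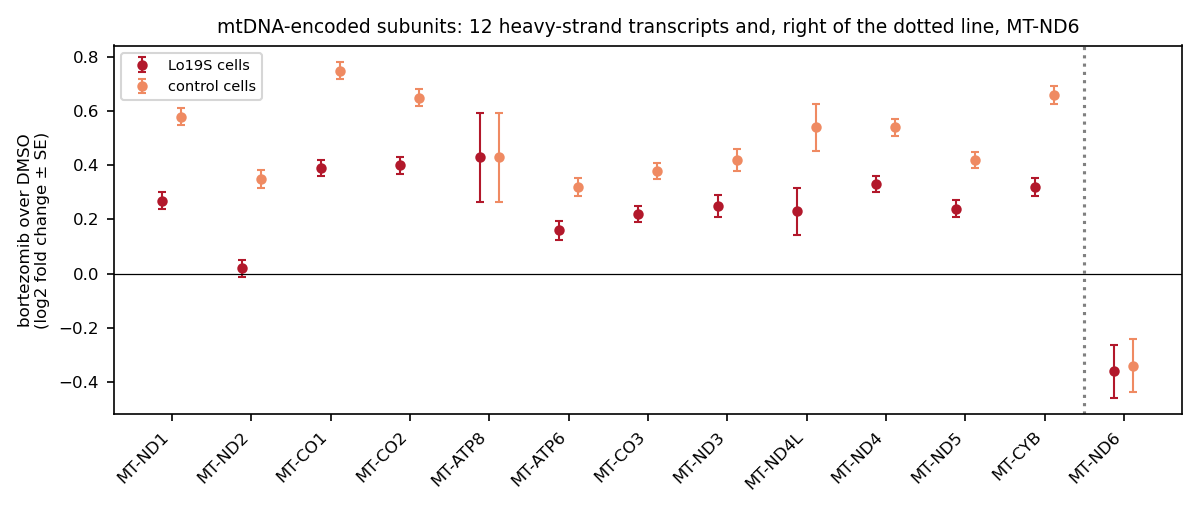
Log2 fold change with bortezomib (points, ± SE, TMM scale) of the 13 mitochondrial members in Lo19S and control cells, in genome order except MT-ND6 at the right. The 12 heavy-strand genes lie above 0 in both states, from 0.02 for MT-ND2 in Lo19S cells to 0.75 for MT-CO1 in control cells, and MT-ND6 lies below 0.

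Per kilobase of gene, MT-ND4 had the highest level of the 13 in each group and MT-ND6 the lowest. MT-ND4 was at 9537 ± 109 CPM per kb in Lo19S cells with bortezomib, 10598 ± 445 in control cells with bortezomib, 7563 ± 77.5 in Lo19S cells with DMSO and 7311 ± 179 in control cells with DMSO (SD, n = 3 each). MT-ND6 was at 292 ± 25.8, 303 ± 22.7, 377 ± 12.6 and 384 ± 49.1 CPM per kb in the same order of groups. Libraries were made from polyadenylated RNA, and MT-ND6 RNA is known to lack the long poly(A) tail of the others, so its level here is not comparable with theirs, and whether tail length changed was not tested. MT-ATP8 overlaps MT-ATP6 over 22.2% of its length on the same strand and MT-ND4L overlaps MT-ND4 over 2.4%, and how reads in such overlaps were counted is not given. Nuclear copies of mitochondrial sequence held counts as well, with the most for MTCO3P12 (5063 to 10954 per library), and how reads shared between genes and copies were counted is not given.

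The Lo19S state by itself changed few subunit genes. Under DMSO 10 of 81 nuclear members were higher and 3 lower in Lo19S cells than in control cells, where 11.7% of all genes were higher and 13% lower, so the share of members called higher was near that of all genes. Of the 13 mitochondrial members 4 were higher and 0 lower. Without a filter on low counts 6 nuclear and 1 mitochondrial members were higher, the DESeq2 test called 5 nuclear members higher, and with library totals 1 nuclear member was lower. Medians were 0.04 for nuclear and 0.05 for mitochondrial members. Complex I held 7 of the 10 nuclear rises, 6 of them in the group of the membrane arm. Both counts include NDUFA4, grouped here by its symbol although its protein is a subunit of complex IV. NDUFA4 was at 218, 226 and 225 CPM in Lo19S cells, against 163, 149 and 191 CPM in control cells (log2 0.41, SE 0.087, adjusted p = 0.00544), with no overlap. NDUFB9 was at 230.3, 229.6 and 220.5 CPM in Lo19S cells, against 194, 195 and 193 CPM in control cells (log2 0.23, SE 0.037, adjusted p = 4.59e-06).

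NDUFB3 (0.22), NDUFB7 (0.18), NDUFB5 (0.16) and NDUFB4 (0.13), all of the membrane arm, were higher as well, and NDUFA5 fell, at 40.2, 39.8 and 41.8 CPM in Lo19S cells, against 52.5, 51.9 and 45.1 CPM in control cells (log2 -0.30, SE 0.067, adjusted p = 0.000486). Outside complex I, UQCRQ of complex III rose by 0.20 (SE 0.048, adjusted p = 0.00152). SDHC (0.16) and COX7C (0.10) were called higher and SDHA (-0.12) and ATP5F1B (-0.09) lower, but each of these 4 calls was lost without one library or another. They were lost in 8, 7, 3 and 4 of the 12 fits that left out 1 library, with adjusted p up to 0.235 for SDHC (without control DMSO replicate 1), 0.123 for COX7C (without control DMSO replicate 2), 0.129 for SDHA (without Lo19S DMSO replicate 3) and 0.101 for ATP5F1B (without Lo19S DMSO replicate 2). Among mitochondrial members MT-CO1 rose by 0.16 (SE 0.031, adjusted p = 7.9e-05), MT-ND5 by 0.11 (adjusted p = 0.00448), MT-CYB by 0.10 and MT-CO3 by 0.08. MT-CYB and MT-CO3 lost their calls in 2 and 9 of those fits (adjusted p up to 0.0856 and 0.242, each without control DMSO replicate 2). The nuclear rises numbered 23 without control DMSO replicate 3, the library that stood apart, and 6 without control DMSO replicate 2 or Lo19S DMSO replicate 3. The nuclear falls numbered 1 without control DMSO replicate 1 or Lo19S DMSO replicate 2, and the mitochondrial rises 2 without control DMSO replicate 2 or Lo19S DMSO replicate 1.

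Under bortezomib the 2 states differed more. In Lo19S cells 24 of 81 nuclear members were higher and 4 lower than in control cells, against 22.0% of all genes higher and 21.2% lower, and 9 of 13 mitochondrial members were lower and 0 higher. Nuclear members had a median of 0.08 and mitochondrial members of -0.16, where all genes had 0.004. With library totals, which shifted the median of all genes by 0.11, 53 nuclear members were higher and 0 lower, and 5 mitochondrial members were lower. The 24 rises fell on complex I (10), complex II (2), complex III (2), complex IV (2) and complex V (8).

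ATP5F1A, the alpha subunit of the F1 head, was at 409, 408 and 416 CPM in Lo19S cells, against 322, 323 and 317 CPM in control cells (log2 0.36, SE 0.035, adjusted p = 4.68e-12). NDUFB3 (0.38), SDHC (0.33), UQCR10 (0.32), NDUFB10 (0.31), ATP5IF1 (0.31) and COX7C (0.22) were higher as well. The nuclear falls were those of NDUFA12 (-0.21, SE 0.052), NDUFA10 (-0.13), ATP5ME (-0.16) and COX4I1 (-0.12). ATP5ME lost its call in 7 of 12 fits that left out 1 library (adjusted p up to 0.348 without Lo19S bortezomib replicate 3) and COX4I1 in 1 (0.0643 without that same library). The falls numbered 7 without control DMSO replicate 3 or Lo19S bortezomib replicate 1, and 1 without Lo19S bortezomib replicate 3. Of the mitochondrial members MT-ND2 had the largest fall, at 5364, 5174 and 4918 CPM in Lo19S cells with bortezomib, against 6100.0, 6458 and 6546 CPM in control cells with bortezomib (log2 -0.31, SE 0.032, adjusted p = 5e-11). MT-CYB changed by -0.23, MT-ND1 and MT-CO2 by -0.22 and MT-CO1 by -0.20. With library totals MT-CO3 was at 0.03 and MT-ATP6 at 0.00.

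The bortezomib responses of the 2 states were also set side by side. The comparisons within the states share no libraries. The nuclear genes that fell were 47 in Lo19S cells and 45 in control cells, and 41 were in both lists, which is 87.2% of the Lo19S list and 91.1% of the control list. The nuclear genes that rose were 15 in each state, with 14 in both (93.3% of each). The overlap of such lists over all genes is not given here, so this agreement is not shown to be particular to the members. Of the 45 that fell in control cells, 35 (77.8%) had a smaller change in Lo19S cells, with medians of -0.34 in Lo19S cells and -0.44 in control cells. Of the 15 that rose in control cells, 8 (53.3%) had a smaller change in Lo19S cells, with medians of 0.27 in Lo19S cells and 0.30 in control cells. Genes chosen by their call in control cells tend to have smaller values elsewhere by that choice alone, and among all genes 76.5% of those that fell and 74.3% of those that rose in control cells had a smaller change in Lo19S cells. The nuclear falls were thus near the share of all genes. Of the 12 mitochondrial genes that rose in control cells, 11 had a smaller change in Lo19S cells and MT-ATP8 had 0.43 in each state, with medians over the 12 of 0.26 in Lo19S cells and 0.49 in control cells.

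Tested directly, the difference of the responses (Lo19S minus control) passed upward for 14 nuclear members and downward for 3, and downward for 10 of 13 mitochondrial members, where 14.4% of all genes passed upward and 13.4% downward. The median difference was 0.05 over nuclear members and -0.20 over mitochondrial members, and 0.010 over all genes. The 14 genes lie in complex I (6), complex II (1) and complex V (7), with none called in complexes III and IV. Those of complex V were ATP5F1A (0.35), ATP5PO (0.22), ATP5IF1 (0.22), ATP5PB (0.18), ATP5F1C (0.15), ATP5MC2 (0.15) and ATP5F1B (0.12). NDUFS1 and NDUFV1, core subunits that carry electrons through complex I, had differences of 0.32 and 0.30, and the N-module subunit NDUFS6 had 0.29. NDUFV1 and NDUFS6 had a smaller fall in Lo19S cells, for NDUFV1 -0.24 against -0.53 in control cells. NDUFS1 changed by 0.08 in Lo19S cells (adjusted p = 0.0837) and -0.25 in control cells (adjusted p = 4.8e-07). SDHA (0.33), NDUFB10 (0.33) and ATP5F1A (0.35) had smaller falls too. NDUFA5 (0.38) had the larger rise in Lo19S cells, and its groups under bortezomib overlapped, at 53.2, 60.6 and 63.1 CPM in Lo19S cells, against 58.1, 55.2 and 55.4 CPM in control cells. NDUFA12 (-0.32) rose by 0.35 in control cells (-0.04 with library totals) and was at 0.03 in Lo19S cells (adjusted p = 0.623), and NDUFB9 (-0.15, adjusted p = 0.0228) rose less in Lo19S cells. With library totals 30 nuclear members passed upward and 1 downward, and 6 mitochondrial members downward, and the DESeq2 test passed 9 nuclear members upward. The upward passes numbered 9 without control bortezomib replicate 2. The downward passes numbered 13 without control DMSO replicate 3, 6 without Lo19S bortezomib replicate 1, and 1 without control bortezomib replicate 1 or 2.

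**Figure D5:**
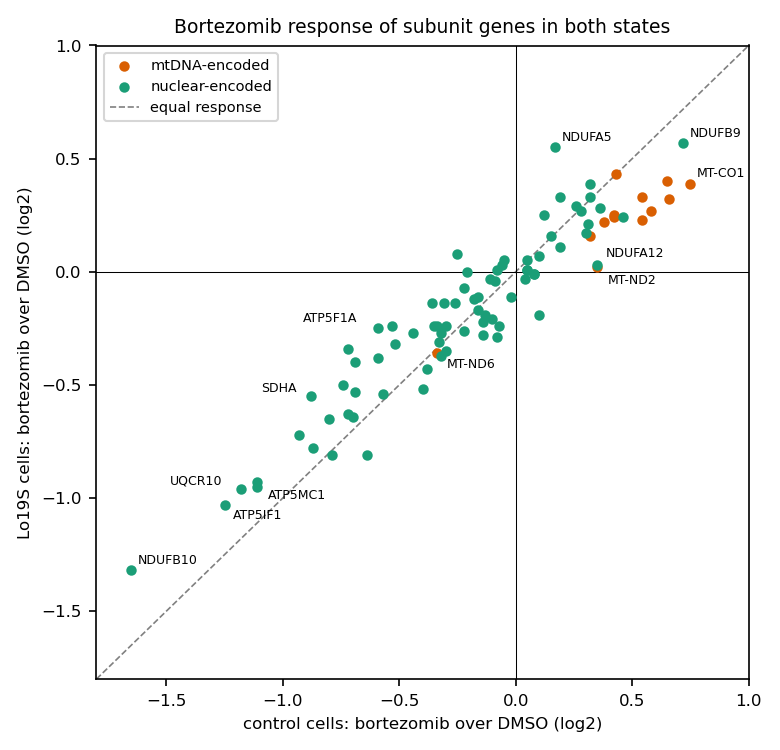
Log2 fold change with bortezomib in Lo19S cells (vertical) against control cells (horizontal), 1 point per member, with the dashed line at equal responses. NDUFA4L2, NDUFA7, NDUFV2 and UQCRHL, which have few counts, are left out. Of the mitochondrial genes that rose in control cells, MT-ATP8 lies on the line and the other 11 below it, and most nuclear genes left of 0 lie above it.

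Tissue-restricted paralogs were at or near 0 counts in these cells. COX6A2, the heart and muscle form of subunit 6A, was at 0 in all 12 libraries, COX4I2, COX7A1 and COX8C had 1 count over all libraries and COX6B2 had 4, and none of them met the count rule. COX7B2, with at least 10 counts in 2 libraries, lay just outside the rule, and NDUFA4L2, with at least 10 in 7, was the member nearest to it. NDUFA4L2, a paralog of NDUFA4 known as a hypoxia-induced gene, was at 1.43, 2.34 and 2.24 CPM in Lo19S cells with bortezomib, against 0.797, 0.344 and 0.855 CPM with DMSO (log2 1.61, SE 0.363, adjusted p = 9.89e-05). In control cells it was at 0.611, 1.23 and 1.55 CPM with bortezomib, against 0.831, 0.652 and 0.743 CPM with DMSO (log2 0.59, adjusted p = 0.18), and the difference of the responses did not pass (adjusted p = 0.184). Under bortezomib its level was called higher in Lo19S than in control cells (0.83, adjusted p = 0.0466), but not in 6 of 12 fits that left out 1 library (up to 0.251 without control bortezomib replicate 1). UQCRH was not called in Lo19S cells (-0.03, adjusted p = 0.651) and was at -0.11 in control cells, a call lost in 4 of 12 such fits (up to 0.112 without control bortezomib replicate 1). Its near-identical copy UQCRHL passed in no comparison, and reads cannot be firmly assigned between the 2.

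Some members share exons with another gene on the same strand in GENCODE release 29, and their counts are uncertain. The shares of exonic bases were 34.5% for COX8A, 33.8% for NDUFB8, 32.3% for NDUFA7, 28.4% for NDUFV2 and 21.0% for NDUFA13. NDUFA7 and NDUFV2 had low counts throughout, at 1.31 to 2.89 CPM and 1.195 to 2.81 CPM. NDUFA7 passed in the difference of responses (-0.99, adjusted p = 0.0474), and the call was lost in 9 of 12 fits that left out 1 library (up to 0.11 without control bortezomib replicate 2). SDHA has pseudogene copies, and how reads that match several genes were treated is not given.

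Genes outside the complexes that build or run them moved in mixed directions with bortezomib. Their counts are to be read against all genes, of which 37.8% were higher and 39.7% lower in Lo19S cells. In control cells 39.2% of all genes were higher and 42.2% lower. Of 26 tested genes of mitochondrial DNA expression, 14 were higher and 3 lower in Lo19S cells, and 14 higher and 5 lower in control cells. SUPV3L1, a helicase of the mitochondrial RNA degradosome, rose by 1.14 in Lo19S cells and 1.53 in control cells, and MTPAP, the mitochondrial poly(A) polymerase, by 0.97 and 1.39. POLG2, an accessory subunit of the mitochondrial DNA polymerase, changed by -0.55 in Lo19S cells and -0.98 in control cells. Of 8 regulators of nuclear subunit genes, 3 were higher and 3 lower in Lo19S cells, and 4 higher and 3 lower in control cells. GABPB1, the partner subunit of GABP, rose by 1.47 in Lo19S cells and 2.01 in control cells. The coactivators of the PGC-1 family did not move together. PPRC1 rose by 0.76 in Lo19S cells and 1.08 in control cells, while PPARGC1A and PPARGC1B fell. PPARGC1A fell by 1.03 in Lo19S cells and 1.87 in control cells. PPARGC1B was at 8.35 ± 0.776 CPM in Lo19S cells with bortezomib against 18.9 ± 2.04 CPM with DMSO, and at 6.32 ± 0.873 CPM in control cells with bortezomib against 19.1 ± 1.47 CPM with DMSO (SD, n = 3 each). The PPARGC1A call in Lo19S cells was lost without Lo19S bortezomib replicate 3 (-0.72, adjusted p = 0.0547).

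Assembly factors moved in both directions, and their counts are to be read against the shares of all genes. Those were 39.7% lower and 37.8% higher in Lo19S cells, and 42.2% lower and 39.2% higher in control cells. Of 16 for complex I, 9 were lower and 6 higher in Lo19S cells, and 9 lower and 5 higher in control cells, where NUBPL, which inserts iron-sulfur clusters, fell by 1.14 and NDUFAF4 rose by 0.95. Of 22 tested for complex IV, 11 were lower and 7 higher in Lo19S cells, and 12 lower and 6 higher in control cells. COX18, which inserts part of MT-CO2 into the membrane, changed by -1.40 in Lo19S cells and -2.04 in control cells, and COX19, a copper-handling factor, by 1.07 and 1.53. Of 9 tested for complexes II and III, 3 were lower and 1 higher in Lo19S cells, and 5 lower and 2 higher in control cells, with UQCC3 at -1.11 in Lo19S cells and -1.51 in control cells. Of 4 for complex V, 2 were lower and 2 higher in Lo19S cells, and 2 lower and 1 higher in control cells. Of 15 electron carriers and partners, 9 were lower and 4 higher in each state, and CYCS, cytochrome c, rose by 0.38 in control cells, with 0.00 under library totals.

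Between the states, 5 of these 7 lists had fewer calls under DMSO than under bortezomib, as had all genes (11.7% higher and 13% lower in Lo19S cells under DMSO, against 22.0% and 21.2% under bortezomib). The lists for complexes II and III and for complex V had the same number in both. Complex I assembly had 1 higher and 0 lower in Lo19S cells, complex IV assembly 2 and 1, complexes II and III assembly 0 and 2, and mitochondrial DNA expression 0 and 6. TTC19, a complex III factor, fell by 0.43 (SE 0.072), UQCC3 by 0.32 and CYCS by 0.24 in Lo19S cells. Under bortezomib, complex IV assembly had 9 higher and 3 lower in Lo19S cells, electron carriers 10 and 1, mitochondrial DNA expression 4 and 9, and regulators 1 and 4. FASTKD5, needed to process mitochondrial transcripts without flanking tRNAs, changed by -0.61 (SE 0.052), GABPB1 by -0.58 and MTPAP by -0.50, whereas NUBPL changed by 0.68 and COX14 by 0.59. For GABPB1 the difference of responses was -0.54 (SE 0.093, adjusted p = 1.13e-05), and for FASTKD5 it was -0.47 (SE 0.080, adjusted p = 6.6e-06).

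Of the 65 nuclear members with a promoter window, 11 of the 17 with an NRF1-type match were lower and 1 higher with bortezomib in Lo19S cells, and 10 lower and 2 higher in control cells. Of the 31 with neither motif, 19 were lower and 7 higher in Lo19S cells, and 17 lower and 7 higher in control cells. Of the 20 with an ETS-type match, 12 were lower and 1 higher in each state. The medians for the NRF1-type, neither and ETS-type sets were -0.17, -0.24 and -0.18 in Lo19S cells and -0.30, -0.21 and -0.15 in control cells, so the order of the sets was not the same in the 2 states. These counts, too, are to be read against the shares of all genes given above. No difference between the sets was tested.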

How the data were processed

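RNA of T47D cells was counted per gene in 12 libraries, 3 in each of 4 groups taken from the sample labels. Each library has 1 deposited file with raw counts, whole reads per Ensembl gene that were not normalized. The labels' protocols name TRIzol for extraction and a stranded kit with polyA selection. The build was GRCh37, and STAR 2.5.4b and featureCounts 1.6.1 were used, per the submitters' processing notes. Neither the annotation, nor the strand setting, nor how multi-mapping reads were handled is given in the sources used here.

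Symbols were matched for 51996 of 57773 identifiers. GENCODE release 29 belongs to another build, so it gave only biotypes, chromosome names, exon overlaps and lengths of mitochondrial genes. The filterByExpr filter by group kept 14714 genes. After TMM scaling, 1 model with a coefficient per group was fitted to all 12 libraries in edgeR 4.0.16 (R 4.3.3), with the robust quasi-likelihood F-test. P-values were adjusted by Benjamini-Hochberg over all genes tested in each of 5 comparisons. Standard errors (SE) are approximate: each is the size of a log2 fold change divided by the root of its F value. The fit was tested on simulated counts for the DMSO comparison only, with few genes changed. That setting is unlike the wide changes with bortezomib and does not check them. Depth was 7376597 to 15003480 counts per library, and members with few counts are the least precise.

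The members, the other gene lists and the named genes were chosen with earlier results of these data known. Named are all mitochondrial members, the called members with the largest change in each direction per complex and comparison, the 10 largest differences of response, paralog pairs, and the 2 largest called changes in each direction per other list, of which examples are printed. Genes named beside these as completing a count were chosen after their values were seen. Alternatives were library totals, DESeq2 size factors, upper-quartile factors, other filters, a replicate block, only the groups compared, DESeq2 1.42.0, and leaving out each library in turn. Sums and ratios over members are descriptions without a test. Protein sequences of paralogs were not analysed here. The values of 1 member are not reported here, though it is counted among the members.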

Additional observations from a re-analysis of the deposited data

Results flagged for a closer look

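The bortezomib response of the members given here differed between the states by a direct test of the difference (Lo19S minus control, log2, edgeR adjusted p below 0.05): all 10 such mitochondrial members, and nuclear members with large differences. Among mitochondrial members the difference was negative for MT-CO1 (-0.36), MT-CYB (-0.34), MT-ND2 (-0.33), MT-ND1 (-0.30), MT-CO2 (-0.25), MT-ND4 (-0.20), MT-ND5 (-0.18), MT-ND3 (-0.17), MT-ATP6 (-0.16) and MT-CO3 (-0.16). With library totals the calls of MT-ND3, MT-ND5, MT-ATP6 and MT-CO3 were lost. MT-ATP6 was also not called without Lo19S bortezomib replicate 2 or 3 (adjusted p up to 0.0547), nor MT-ND3 in 4 of 12 fits that left out 1 library (adjusted p up to 0.192 without control DMSO replicate 3).

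Among nuclear members the difference was positive for NDUFA5 (0.38), ATP5F1A (0.35), SDHA (0.33), NDUFB10 (0.33), NDUFS1 (0.32), NDUFV1 (0.30) and NDUFS6 (0.29), and negative for NDUFA7 (-0.99) and NDUFA12 (-0.32). NDUFA7, at 1.31 to 2.89 CPM, was not called in 9 of 12 fits that left out 1 library.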

How the results depend on the processing

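Scaling was the choice that moved most values. With library totals the nuclear members called higher and lower with bortezomib were 3 and 66 in Lo19S cells and 1 and 68 in control cells, and the mitochondrial ones 2 and 4 in Lo19S cells and 5 and 1 in control cells. Between Lo19S and control cells under bortezomib they were 53 and 0 nuclear, with 5 mitochondrial lower, and for the difference of responses 30 and 1 nuclear, with 6 mitochondrial lower. Under DMSO 1 nuclear member was lower. With upper-quartile factors 9 nuclear members were higher with bortezomib in each state, 2 mitochondrial members were lower in Lo19S cells, and 1 nuclear member was lower in Lo19S cells under DMSO. With only the groups compared, 1 nuclear member was lower there too. Without a filter 6 nuclear and 1 mitochondrial members were higher under DMSO. The DESeq2 test called 5 nuclear members higher under DMSO and 9 for the difference.

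Among called members, 14 changed sign with library totals for bortezomib in Lo19S cells, 15 for bortezomib in control cells and 2 between the states under bortezomib. Genes of the naming rule that changed sign are listed next if they were called on either scale, and those called on neither are left out. For bortezomib in Lo19S cells they were MT-ND1 (-0.01), MT-ND2 (-0.26), MT-ATP6 (-0.13), MT-CO3 (-0.07), MT-ND3 (-0.04), MT-ND4L (-0.05), MT-ND5 (-0.04), UQCRC2 (-0.04), COX7A2 (-0.24), NDUFA4 (-0.05) and TMEM70 (-0.03). For bortezomib in control cells they were MT-ND2 (-0.03), MT-ATP6 (-0.06), SDHB (-0.19), UQCRB (-0.07), COX7A2L (-0.06), COX4I1 (-0.34), COX6A1 (-0.30), COX7A2 (-0.33), UQCC1 (-0.13), BCS1L (-0.16), CYCS (0.00) and NDUFAB1 (-0.10), and between the states under bortezomib MT-ATP6 (0.00) and MT-CO3 (0.03). The other called members that changed sign were NDUFA10 (-0.18), NDUFS4 (-0.13), UQCRB (-0.08), COX6C (-0.02), NDUFC2 (-0.12) and NDUFA6 (-0.01) in Lo19S cells, and NDUFA10 (-0.19), NDUFS4 (-0.23), NDUFA5 (-0.21), COX6C (-0.10), NDUFB8 (-0.06), NDUFC2 (-0.08), NDUFA12 (-0.04), UQCRC2 (-0.26), NDUFA11 (-0.12) and NDUFA6 (-0.02) in control cells. With upper-quartile factors MT-ND2 was at -0.11 in Lo19S cells and COX4I1 at -0.09 in control cells. These changes follow the shift of the median of all genes that the scaling itself makes.

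Leaving out 1 library, the nuclear members higher and lower in Lo19S cells under DMSO numbered 6 to 23 and 1 to 4, and the mitochondrial ones higher 2 to 5. With bortezomib they were 13 to 18 and 39 to 49 nuclear and 9 to 11 mitochondrial in Lo19S cells, and 14 to 17, 43 to 47 and 11 to 12 in control cells. Between the states under bortezomib they were 19 to 32 and 1 to 7 nuclear, with 7 to 10 mitochondrial lower, and for the difference 9 to 21 and 1 to 13, with 8 to 11. Over 3132 such values of named genes, none that was called in the full fit or in the reduced fit changed sign. Of these values 159 lost their call and 36 gained one. Sign changes of values called in neither fit were not counted. Ratios of mitochondrial to nuclear counts were 5.62 to 5.64 in Lo19S cells with bortezomib, 6.66 to 6.9 in control cells with bortezomib, 4.13 to 4.17 in Lo19S cells with DMSO and 3.99 to 4.07 in control cells with DMSO. Without the member with the most counts on each side they were 4.99, 6.06, 3.72 and 3.65 in the same order.

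The labels do not say whether a replicate number marks a shared culture or day. Same-numbered libraries had correlations of their deviations from group means, over all tested genes, between -0.072 and 0.026. These values cannot decide it, since much of each deviation is counting noise. With the replicate block the nuclear counts higher and lower were 9 and 3 under DMSO, 15 and 46 with bortezomib in Lo19S cells, 16 and 45 in control cells, 24 and 4 between the states under bortezomib, and 13 and 4 for the difference. Depth limits NDUFA4L2, NDUFA7, NDUFV2 and UQCRHL.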
